A study of Mus musculus with 23 samples.

Results

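Igf2bp1 is one of the most heavily covered genes in a crosslinking and immunoprecipitation sequencing (CLIP-seq) study of the RNA helicase Upf1 in mouse embryonic stem cells. The gene was chosen by its measured coverage in these libraries, so the height of that coverage is a description and supports nothing here. Its alignments are those on the minus strand of chromosome 11 with a midpoint between positions 95818000 and 95868000 of mouse build mm9. They numbered 1317 of the 360043 distinct alignments on the nuclear chromosomes, or of 366484 with the mitochondrial chromosome and a contig named chrRibo included. A distinct alignment is a combination of chromosome, start, end and strand, counted once per library however many lines carried it. The name Igf2bp1 was assigned together with these positions. No annotation of mm9 was used here, so exons and untranslated regions were not assigned.

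Igf2bp1 encodes a cytoplasmic RNA-binding protein with RNA recognition motifs and KH domains. The protein, also known as IMP1, ZBP1 or CRD-BP, attaches to messenger RNAs such as those of beta-actin and Myc and affects their localisation, translation and stability. It is abundant in embryonic tissues and largely silent in most adult ones. Its own messenger RNA has a long 3′ untranslated region and is a known target of the let-7 family of microRNAs. Upf1 is the ATP-dependent helicase of nonsense-mediated decay and binds RNA broadly. Cycloheximide blocks translation elongation.

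The cells were v6.5 mouse embryonic stem cells, an established line grown on feeder fibroblasts, which were depleted by pre-plating before irradiation at 254 nm with 400 mJ/cm2. All 10 libraries came from irradiated cells. An Upf1 antibody was used on untreated cells (libraries A1, A2 and I) and on cells kept for 2 hours in 100 µg/ml cycloheximide (A1 and A2). Rabbit IgG, the control for RNA recovered without the Upf1 antibody, was used on the same 2 kinds of cells with the same library names. Nothing in the labels states that the libraries within a group derive from separate cultures. The p-values therefore refer to the spread between these libraries alone, which may be technical. The markers of stem cells and of feeder fibroblasts were not evaluated, since no gene annotation of the build was used.

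Depth set the precision. The nuclear alignments per library ranged from 20141 to 96426 in Upf1 and from 7067 to 46004 in IgG. Reads reached 34 nt in 3 libraries (IgG untreated I, and A1 and I of untreated Upf1) and 38 nt in the other 7, so every library with 34 nt reads was untreated. IgG untreated A1 stood apart: its 801 lines at Igf2bp1 came from 18 distinct alignments, and results that rest on it are given with and without it. Several IgG libraries shared molecules with others, as described for this locus further on.

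The edges of the locus were nearly empty on the outside. Within 1000 nt below its lower edge lay 1 alignment, against 74 in the first 1000 nt inside, and within 1000 nt above its upper edge lay 3, against 11 inside. No alignment within the locus lay on the plus strand. In RefSeq's table for another build (GRCm38.p6), the nearest protein-coding neighbours of Igf2bp1 are B4galnt2 and Gip, and the microRNA gene Mir3063 lies within the span of Igf2bp1. The place of Mir3063 on mm9 was not determined here.

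The rate of Igf2bp1 alignments per 100000 nuclear alignments was 472 in Upf1 untreated A1, 427 in A2 and 294 in I. It was 187 in Upf1 cycloheximide A1 and 195 in A2. The IgG libraries from untreated cells gave 186 in A1, 488 in A2 and 533 in I. Those from cycloheximide-treated cells gave 297 in A1 and 357 in A2. The highest value belonged to an IgG library, and the 3 lowest were both Upf1 cycloheximide libraries and IgG untreated A1. The Wilson 95% interval was narrowest, relative to its value, in Upf1 untreated A1 (431 to 517, 455 alignments) and widest in IgG untreated A1 (118 to 293, 18 alignments). These intervals, and the limits that a count of 0 allows, cover counting error only.

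**Figure D1:**
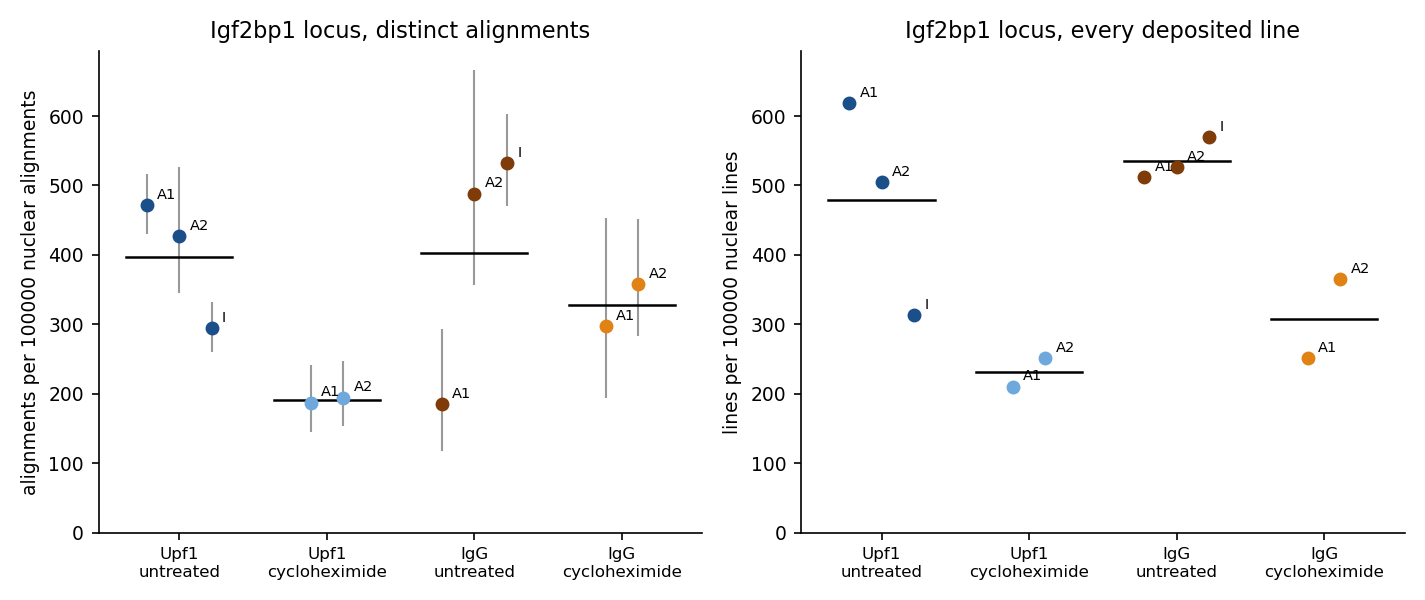
Igf2bp1 alignments per 100000 nuclear alignments by group, with distinct alignments on the left and every deposited line on the right; points are libraries, error bars on the left Wilson 95% intervals, and horizontal bars group means. The Upf1 cycloheximide libraries sit at 187 and 195, below the 3 untreated Upf1 libraries at 294 to 472, and IgG untreated A1 moves from 186 to 512 when every line is counted.

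The first question was whether Igf2bp1 RNA was recovered more with the Upf1 antibody than with control IgG. No difference beyond the spread between libraries was found. In untreated cells the mean rate was 398 ± 92.4 (SD, n = 3) with Upf1 and 402 ± 189 (SD, n = 3) with IgG, and the libraries overlapped. Without IgG untreated A1 the IgG mean was 510 ± 31.4 (SD, n = 2), above each untreated Upf1 library. With cycloheximide the mean was 191 ± 5.09 (SD, n = 2) with Upf1 and 327 ± 42.7 (SD, n = 2) with IgG, and each Upf1 library lay below each IgG library.

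Over both treatments, the mean rate was 315 ± 131 with Upf1 and 372 ± 141 with IgG (SD, n = 5 each). The difference was -57.2, with an exact two-sided permutation p = 0.467 when antibody labels were permuted within treatment. Adjusted over the 5 permutation tests made on the locus, the permutation p was 0.778. The difference was -103.8 without IgG untreated A1 (exact permutation p = 0.117), -28.2 without IgG untreated A2, -17.1 without IgG untreated I, -25.3 without Upf1 cycloheximide A1 and -27.1 without Upf1 cycloheximide A2. It was -8.38 when molecules found in more than 1 library were left out (exact permutation p = 0.95). Within untreated cells alone the difference was -4.45 (exact permutation p = 1), and within cycloheximide it was -136 (exact permutation p = 0.333, the smallest that 2 against 2 libraries allow). A single test of this kind cannot go below 0.0167 before adjustment and so could not pass alone after it.

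The next question was whether recovery of Igf2bp1 changed when translation was blocked. The locus was chosen for its coverage in these libraries, and 1102 of its 1317 alignments came from untreated cells. That choice leans to untreated libraries, so the p-values on this rate are not independent support. Among the Upf1 libraries, both cycloheximide values lay below all 3 untreated values, and the untreated mean was 2.08-fold the cycloheximide mean. The difference of the means was -207 per 100000, with an exact permutation p = 0.2, where 2 against 3 libraries cannot go below 0.1. Among the IgG libraries the difference was -74.8 (exact permutation p = 0.6), and the groups overlapped with IgG untreated A1 as the one untreated library below the cycloheximide ones. Over all 10 libraries, with labels permuted within antibody, the difference was -141 (exact permutation p = 0.13, adjusted permutation p = 0.4) and did not pass. Without IgG untreated A1 it was -184 (exact permutation p = 0.0333, adjusted permutation p = 0.0833). With any other untreated library left out it lay between -162 and -114 (exact permutation p from 0.0833 to 0.233). With a cycloheximide library left out it lay between -174 and -117. The difference of the cycloheximide changes between the antibodies was -132 (exact permutation p = 0.367), so a change particular to Upf1 was not shown. IgG untreated A1 enters that value. Without it the untreated IgG mean was 510, against 327 with cycloheximide, so IgG was lower with cycloheximide too. The difference between the antibodies was not recomputed without it.

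How the alignments were tallied touched this comparison. With every deposited line counted, the rates were 619, 505 and 313 in untreated Upf1, 211 and 252 in Upf1 with cycloheximide, 512, 527 and 569 in untreated IgG and 251 and 365 in IgG with cycloheximide. The cycloheximide libraries then lay below the untreated ones within each antibody. The difference was -238, with an exact permutation p = 0.01, the smallest this design allows, and an adjusted permutation p of 0.05, which is not below the threshold of 0.05. Lines include copies made by amplification. Without shared molecules the difference was -226 (exact permutation p = 0.04, adjusted permutation p = 0.2). Among the 7 libraries with 38 nt reads it was -108 (exact permutation p = 0.333), with A2 as the one untreated Upf1 library.

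The rate of Igf2bp1 was next set beside other heavily covered regions of the nuclear genome. For this, regions were built by joining the unspliced alignments of the 10 libraries on each strand across gaps of up to 50 nt. Tests were limited to regions with 10 or more alignments over all libraries and presence in 3 or more, which left 2357 of 203521 regions. Of the 49 nuclear tested regions with at least 100 alignments, 41 had a lower mean rate with cycloheximide in Upf1, and the median log2 change of the mean rate (plus 1) was -1.73, over a range of -5.20 to 4.21. The most covered Igf2bp1 region had a log2 change of -1.73 and was the 25th lowest of the 49. In IgG the median over the 49 regions was -0.39, with 33 lower, and the most covered Igf2bp1 region had -0.56. IgG untreated A1 enters these IgG values, and they were not recomputed without it. In the most covered Igf2bp1 region its rate was the lowest of the untreated IgG libraries, which lowers the untreated mean there.

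Of the 49 heavily covered regions, 63.3% had every Upf1 cycloheximide library below every untreated Upf1 library. Igf2bp1 held 4 of the 49, and 2 of those 4 showed it. The matching background in IgG was 10.2%, and 0 of the 4 Igf2bp1 regions showed it. That 0 rests on IgG untreated A1. In the most covered region the IgG rates were 31.0 in untreated A1, 238 in A2 and 230 in I. With cycloheximide they were 84.9 and 140. Without IgG untreated A1, untreated IgG also lay above cycloheximide at 95821519 to 95822880 and at 95820715 to 95821458. At 95819386 to 95820348 they overlapped. The background without that library was not computed. With cycloheximide, 49.0% of the 49 regions had every Upf1 library below every IgG library, and 3 of the 4 Igf2bp1 regions did. The log2 change in Upf1 was -0.99 at positions 95821519 to 95822880, -0.23 at 95820715 to 95821458 and -1.20 at 95819386 to 95820348. These ranked 33rd, 39th and 30th lowest, on the side of the smaller decreases. The corresponding changes in IgG were -0.00, -0.87 and -0.05. IgG untreated A1 enters these changes, with rates of 31.0, 0 and 20.6 in the same order. In each region its rate lay below those of IgG untreated A2 and I, which lowers the untreated mean. The changes were not recomputed without it, so the values near 0 do not show that IgG was unchanged.

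These backgrounds depend on how the regions were picked. The minimum of 100 alignments is a sum over libraries, and untreated Upf1 holds 204603 nuclear alignments against 65387 with cycloheximide, so regions high in untreated cells pass more easily. Other choices of 49 regions, made after the data had been seen, gave other values. Picked by the mean rate over the IgG groups alone, 30 of 49 were lower with cycloheximide in Upf1, the median log2 change was -0.60 and 38.8% had the Upf1 libraries apart in that direction. With the 4 groups weighted equally these were 35 of 49, -0.99 and 44.9%. Picked by Upf1 cycloheximide alone, a choice that leans the other way, they were 13 of 49, 0.56 and 6.12%. The most covered Igf2bp1 region was the 13th lowest of 49 under the IgG choice, the 16th under equal weights and the lowest under the last. Whether Igf2bp1 differed from comparable regions was therefore not settled by these counts.

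**Figure D2:**
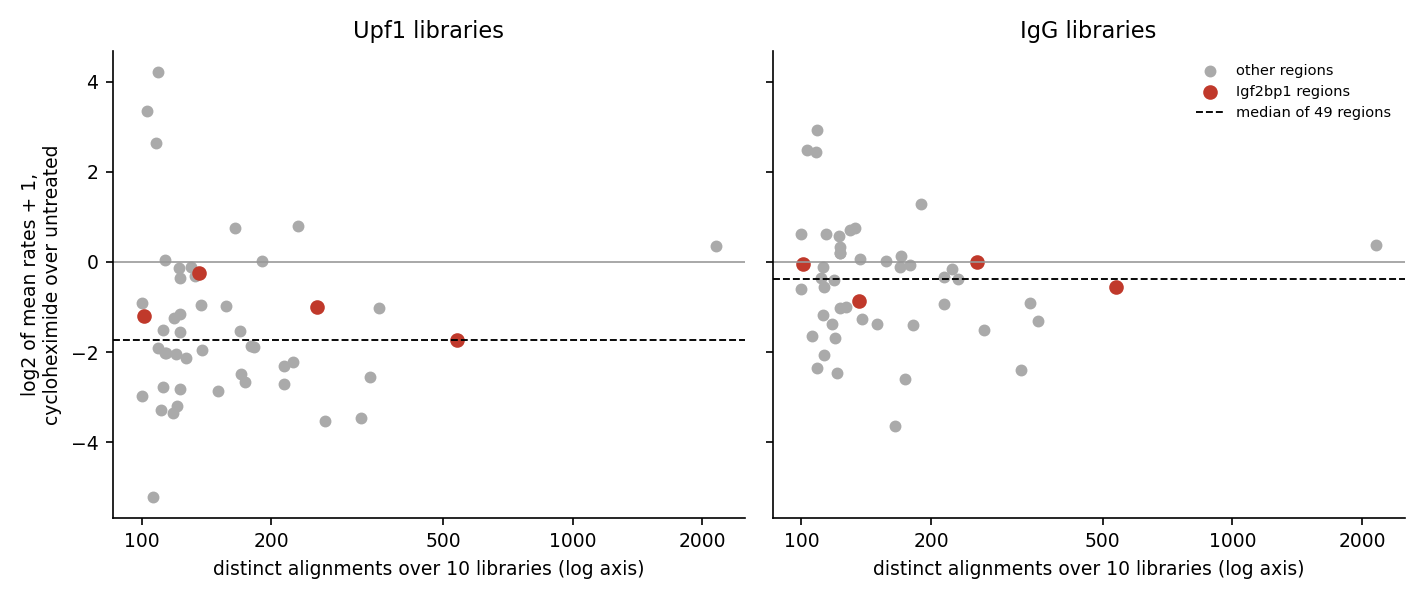
Log2 change of the mean rate (plus 1) with cycloheximide against the number of distinct alignments (log axis) for the 49 nuclear regions with at least 100 alignments, in Upf1 on the left and IgG on the right; red points are the 4 Igf2bp1 regions and the dashed line is the median. The Igf2bp1 region with 538 alignments lies on the Upf1 median of -1.73, and the other 3 lie above it, for regions picked by their summed alignments.

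Along the gene, coverage was concentrated in a single tract at its 3′ end. The tract ran from position 95818540 to 95824888, which is 6349 nt, and held 1191 of the 1317 alignments (90.4%). Its bounds were read from the data, with an upper limit at 95825000. Over all libraries 5150 nt of it (81.1%) were covered, and its longest gap was 111 nt. The 1317 alignments fell on 1032 distinct positions, of which 843 were seen in 1 library and none in more than 6. Most exact positions were thus seen in 1 library alone.

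One edge of the tract met a splice junction. The gene runs on the minus strand, so 95824888 is the 5′ edge of the tract. A spliced alignment of Upf1 untreated A1 spanned 95824884 to 95827501, and so started within the last 5 nt of the tract and continued upstream of it. The most covered part, positions 95823439 to 95824888, is the stretch next to that edge. Within the tract the most covered part is thus at the 5′ side, although within the gene it lies near the 3′ end.

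The most covered part takes up 1450 nt (22.8% of the tract) and held 538 of the 1306 unspliced alignments of the locus (41.2%). That is 37.1 alignments per 100 nt, against 13.3 per 100 nt in the rest of the tract, a 2.78-fold difference. It was selected for its coverage, so these values describe the choice. Coverage was lower towards the 3′ end in the untreated groups. In untreated Upf1, the share of tract alignments per 1000 nt step was 31.3% at 95824000 to 95824999. The steps that follow towards the 3′ end held 20.7%, 13.0%, 11.9%, 10.3%, 6.70% and 6.16%. In untreated IgG the same steps held 33.3%, 19.4%, 13.6%, 14.7%, 10.3%, 6.23% and 2.56%. With cycloheximide the first step held less in the pooled shares. By library it held 30.0% to 32.1% in untreated Upf1 and 20% and 22.8% with cycloheximide. In IgG it held 36.1% and 33.6% in untreated A2 and I and 16.7% and 27.4% with cycloheximide, but 12.5% in untreated A1, from 8 tract alignments. The 7 steps held 21.5%, 12.1%, 12.1%, 18.7%, 16.8%, 7.48% and 11.2% in Upf1, from 107 alignments, and 25.0%, 17.5%, 13.8%, 13.8%, 11.2%, 6.25% and 12.5% in IgG, from 80.

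**Figure D3:**
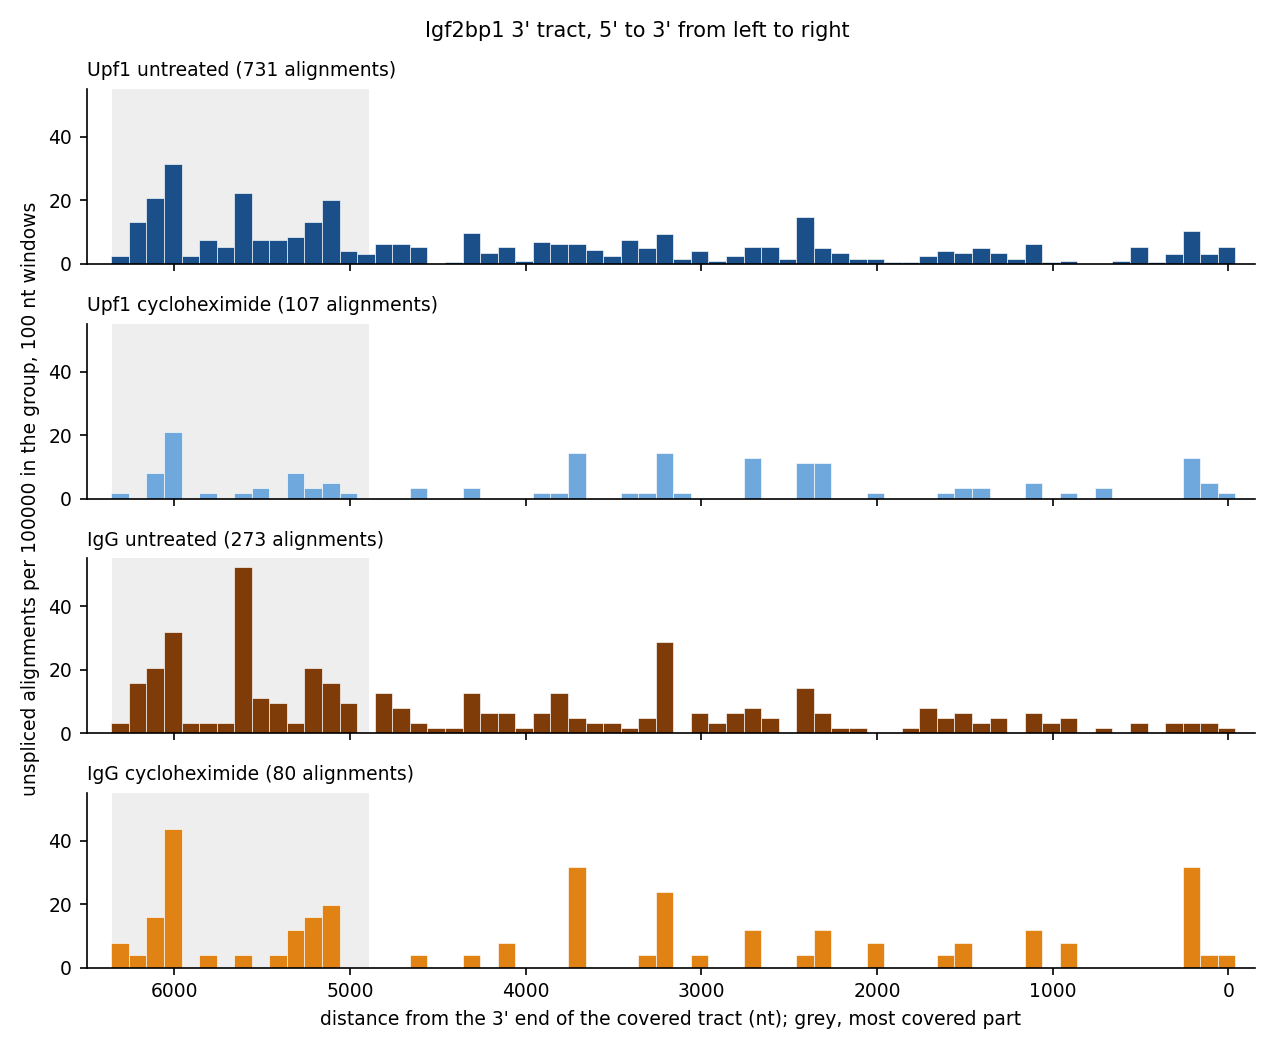
Unspliced alignments per 100000 in 100 nt windows along the Igf2bp1 tract for each CLIP group, drawn 5′ to 3′ from left to right; the x axis is the distance from the tract's 3′ end and grey marks the most covered part. All 4 groups have coverage along the tract, and the highest windows of both untreated groups lie inside the grey stretch.

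The share of unspliced Igf2bp1 alignments in the most covered part was 44.9% in Upf1 untreated A1, 46.5% in A2 and 38.7% in I. It was 25.4% in Upf1 cycloheximide A1 and 29.2% in A2. In IgG from untreated cells it was 20% in A1, 50% in A2 and 43.4% in I, and with cycloheximide 28.6% in A1 and 39.7% in A2. IgG untreated A1 rests on 3 of 15 alignments. Both Upf1 cycloheximide libraries lay below all 3 untreated Upf1 libraries, with means of 27.3% ± 2.69 (SD, n = 2) and 43.4% ± 4.15 (SD, n = 3).

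The part was picked from pooled coverage in which 1102 of the 1317 alignments came from untreated cells. The choice thus leans to untreated libraries, and the p-values on this share are not independent support. A stretch of the same length picked from the cycloheximide libraries alone, after the data had been seen, was 95823528 to 95824977. It held 44.1%, 46.5% and 36.7% of unspliced alignments in untreated Upf1 and 23.7% and 29.2% with cycloheximide. In IgG it held 20%, 50% and 43.0% in untreated A1, A2 and I and 28.6% and 39.7% with cycloheximide, and the groups overlapped. This stretch overlaps most of the original part. It therefore counts nearly the same alignments and is no independent check of the choice.

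Within Upf1 the difference in the share of the most covered part was -16.0 percentage points, with an exact permutation p = 0.1, the smallest that 2 against 3 libraries allow. Within IgG it was -3.68 points (exact permutation p = 0.8), from 37.8% ± 15.8 (SD, n = 3) to 34.1% ± 7.87 (SD, n = 2), and the groups overlapped. Without IgG untreated A1 the untreated IgG mean was 46.7% ± 4.64 (SD, n = 2), and each untreated value was above each cycloheximide value. Over all 10 libraries the difference was -9.86 points (exact permutation p = 0.16, adjusted permutation p = 0.4), and -14.0 points without IgG untreated A1 (exact permutation p = 0.0167, the smallest this design allows, adjusted permutation p = 0.0833). With any other untreated library left out it lay between -10.2 and -7.98 points (exact permutation p from 0.2 to 0.25). With a cycloheximide library left out it lay between -12.9 and -8.09 points. Without shared molecules the difference was -1.77 points (exact permutation p = 0.9), but IgG cycloheximide A1 and A2 then keep 1 and 6 alignments, so their shares carry little information. With the part widened by 500 nt on each side it was -14.3 points (exact permutation p = 0.03, adjusted permutation p = 0.15).

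Between the antibodies the share differed by 0.610 points (exact permutation p = 0.95, adjusted permutation p = 0.95), where the 5 Upf1 libraries averaged 37.0% ± 9.36 (SD) and the 5 IgG libraries 36.3% ± 12.0 (SD). Its sign depended on single libraries and settings. It was -3.48 points without IgG untreated A1, -1.38 without Upf1 untreated A1, -1.78 without Upf1 untreated A2 and -1.33 without IgG cycloheximide A1. The difference of the cycloheximide changes between the antibodies was -12.4 points (exact permutation p = 0.35). IgG untreated A1 enters that value as well. Without it the untreated IgG mean share was 46.7%, against 34.1% with cycloheximide.

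**Figure D4:**
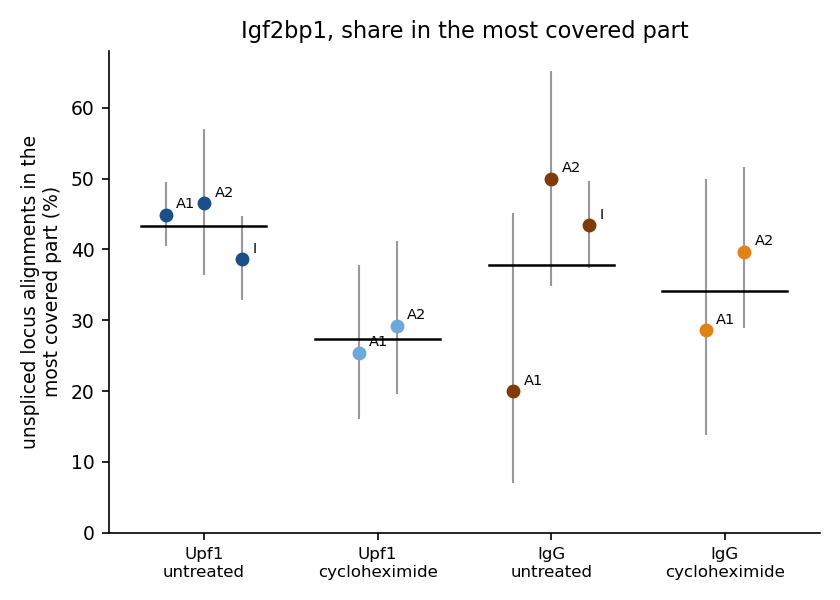
Share of unspliced Igf2bp1 alignments inside the most covered part (percent) by group; points are libraries with Wilson 95% intervals, and horizontal bars are group means. The Upf1 cycloheximide libraries (25.4% and 29.2%) lie below the untreated Upf1 libraries (38.7% to 46.5%), while the interval of IgG untreated A1, with 15 alignments, runs from 7.05% to 45.2%.

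Of the 100 nt windows, the 5 with the most alignments were singled out. The highest, 95824500 to 95824599, held 108 alignments and was hit in 9 libraries. They comprised 34, 11 and 19 in Upf1 untreated A1, A2 and I, 6 and 7 in Upf1 cycloheximide A1 and A2, 0, 5 and 15 in untreated IgG, and 2 and 9 in IgG with cycloheximide. Pooled over each group this came to 31.6 per 100000 in untreated Upf1, 20.9 in Upf1 with cycloheximide, 31.8 in untreated IgG and 43.8 in IgG with cycloheximide. IgG untreated A1, the library at 0, has 9691 nuclear alignments, and a count of 0 there allows up to 31.0 per 100000.

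The window 95824100 to 95824199 had another distribution. It held 80 alignments, of which 29 were in Upf1 untreated A1, 13 in Upf1 untreated I and 31 in IgG untreated I, so that 73 of 80 (91.2%) came from the 3 libraries with 34 nt reads. Upf1 untreated A2 held 3, IgG untreated A2 held 2, Upf1 cycloheximide A2 and IgG cycloheximide A2 held 1 each, and the other 3 libraries held 0. The untreated A2 libraries are shallow, with 20141 (Upf1) and 7990 (IgG) nuclear alignments against 88036 in Upf1 untreated I. For their depth they held no less of this window than Upf1 untreated I, but less than Upf1 untreated A1 and IgG untreated I. The share of 91.2% therefore also reflects depth. The pooled rates were 22.2 and 52.5 per 100000 in untreated Upf1 and IgG, against 1.60 and 3.99 with cycloheximide. The 34 nt libraries held 72.8% of all Igf2bp1 alignments and 64.0% of all nuclear alignments. Read length goes with treatment in this window, and its part in the result was not tested.

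The window 95824600 to 95824699 held 64 alignments, with pooled rates of 20.7 in untreated Upf1, 8.02 in Upf1 with cycloheximide, 20.7 in untreated IgG and 15.9 in IgG with cycloheximide. The window 95823600 to 95823699 held 59, with 20.3, 4.81, 15.9 and 19.9 in the same order. The window 95821700 to 95821799, outside the most covered part, held 52, with 9.39, 14.4, 28.6 and 23.9. In that last window the pooled Upf1 rate was higher with cycloheximide than without, from few alignments. The libraries held 8, 5 and 6 in Upf1 untreated A1, A2 and I, and 5 and 4 with cycloheximide. Upf1 untreated A2 has 20141 nuclear alignments, against 31477 and 33910 in the cycloheximide libraries. For its depth it held more of this window than either, so by library the direction was mixed. The 34 nt libraries held 70.3%, 59.3% and 57.7% of these 3 windows. The commonest 5′ end of an alignment was position 95822238, with 18 alignments in 8 libraries, followed by 95824561 with 15 in 7 libraries and 95824567 with 14 in 9.

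Upstream of the tract lay 126 alignments, 115 of them unspliced. They made up 5.49%, 5.81% and 15.1% of Igf2bp1 alignments in Upf1 untreated A1, A2 and I and 15.3% and 13.6% in Upf1 cycloheximide A1 and A2. In IgG they were 55.6%, 7.69% and 6.53% in untreated A1, A2 and I and 14.3% and 10.1% in cycloheximide A1 and A2. IgG untreated A1, with 10 of its 18 alignments upstream, stood above the other 9 libraries, which lay between 5.49% and 15.3%. The cycloheximide difference over all libraries was -2.69 points (exact permutation p = 0.99), and 5.21 points without IgG untreated A1 (exact permutation p = 0.0833), so its sign rested on that library. The fullest upstream clusters were 95831999 to 95832074 with 11 alignments in 7 libraries, 95867110 to 95867241 with 7 in 4 libraries and 95827534 to 95827605 with 6 in 6 libraries. The highest position reached was 95867730.

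Spliced alignments, those spanning more than 60 nt, were rare. They numbered 11 in all, on 9 distinct spans. Upf1 untreated A1 held 1, A2 held 0 and I held 3, Upf1 cycloheximide A1 held 0 and A2 held 1. IgG untreated A1 held 3, A2 and I held 1 each, and IgG cycloheximide A1 held 0 and A2 held 1. A count of 0 allows a spliced share of up to 3.49% in Upf1 untreated A2, 5.08% in Upf1 cycloheximide A1 and 14.3% in IgG cycloheximide A1.

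The span 95865586 to 95866785 was the one seen in 3 libraries, Upf1 cycloheximide A2, IgG untreated A2 and IgG cycloheximide A2. These libraries also share molecules. Of the 3 spliced alignments of IgG untreated A1, the one at 95832091 to 95834381 occupied 246 lines, and the others lay within 3 nt of it. The spliced share of Igf2bp1 alignments averaged 0.741% ± 0.856 (SD) over the 4 cycloheximide libraries and 3.50% ± 6.52 (SD) over the 6 untreated ones. The difference was -2.76 points (exact permutation p = 0.63, adjusted permutation p = 0.788), and -0.129 points without IgG untreated A1 (exact permutation p = 0.833). Without that library the untreated IgG mean was 1.49% ± 1.52 (SD, n = 2) in place of 6.55% ± 8.83 (SD, n = 3).

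Fragments were short in the libraries from cycloheximide-treated cells. Alignments under 30 nt made up 37.3% (A1) and 40% (A2) of unspliced Igf2bp1 alignments in Upf1 with cycloheximide. In IgG with cycloheximide they made up 42.9% (A1) and 35.3% (A2). In untreated Upf1 they were 16.7%, 17.4% and 8.98% in A1, A2 and I, and in untreated IgG 0%, 28.9% and 5.74%. The same pattern held for whole libraries, with 48.7% to 53.1% under 30 nt with cycloheximide and 10.1% to 39.6% without. In the untreated libraries with 34 nt reads it was 15.1% (Upf1 A1), 12.2% (Upf1 I) and 12.0% (IgG I). In the untreated libraries with 38 nt reads it was 31.6% (Upf1 A2), 39.6% (IgG A2) and 10.1% (IgG A1). Igf2bp1 had the lower share in 9 of 10 libraries, the exception being Upf1 untreated A1 (16.7% against 15.1%). Fragment length moved with treatment beside the Igf2bp1 rate, while every library with 34 nt reads was untreated. The part of either in the result was not tested.

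Molecules, meaning alignments together with the 2 letters in their name, were shared between libraries at this locus. In untreated Upf1 the shared part was 5.26% (A1), 40.8% (A2) and 9.69% (I), and in Upf1 with cycloheximide 44.0% (A1) and 47.3% (A2). In untreated IgG it was 0% (A1), 83.7% (A2) and 13.7% (I), and in IgG with cycloheximide 95.2% (A1) and 92.3% (A2). Sharing went with the library. Over all alignments it was 0.796%, 28.8% and 3.77% in untreated Upf1, 30.6% and 36.1% in Upf1 with cycloheximide, 3.43%, 82.2% and 7.20% in untreated IgG, and 81.6% and 85.4% in IgG with cycloheximide. The share at Igf2bp1 was the higher one in 9 of 10 libraries, IgG untreated A1 being the exception. Of the 49 molecules of IgG untreated A2, 33 were also in Upf1 untreated A2 and 32 in IgG cycloheximide A2. Of the 21 molecules of IgG cycloheximide A1, 16 were also in IgG cycloheximide A2 and 11 in Upf1 cycloheximide A2. These libraries are not independent of each other.

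With shared molecules left out, 1 Igf2bp1 alignment remained in IgG cycloheximide A1, 6 in IgG cycloheximide A2 and 8 in IgG untreated A2. The rates then were 464, 354 and 284 in untreated Upf1, 157 and 169 in Upf1 with cycloheximide, 187, 486 and 507 in untreated IgG, and 76.3 and 214 in IgG with cycloheximide. The Upf1 libraries stayed apart by treatment (-204, exact permutation p = 0.2). With cycloheximide the Upf1 and IgG libraries now overlapped, and their difference was 18.0 (exact permutation p = 1) in place of -136.

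The regions of the locus were last compared across the whole table with limma-voom, scaled by the trimmed mean of M values. Of the 68 regions at Igf2bp1, 9 were tested. Limma-voom called 0 of the 9 between Upf1 and IgG, with 1 at an unadjusted p below 0.05, and the trended limma test also called 0. Across all 2357 regions 0 were called in either direction (0%), while 28 regions were higher in Upf1 and 41 lower at an unadjusted p below 0.05. With library totals in place of the scaling, 0 were higher and 495 lower at that level, and 3 were called lower, none of them at Igf2bp1. The log2 ratio of Upf1 to IgG in the most covered region was 0.65 ± 0.78 (SE, limma-voom adjusted p = 0.997), and it was -0.07 without IgG untreated A1. The region at 95820715 to 95821458 had the largest ratio of the 9, 1.69 ± 0.81 (SE, limma-voom adjusted p = 0.997). It held 0 alignments in IgG untreated A1 and IgG cycloheximide A1, where a count of 0 allows up to 31.0 and 42.5 per 100000, and 36.3 to 52.2 per 100000 in the other IgG libraries.

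For cycloheximide against untreated in Upf1, limma-voom called 3.44% of the 2357 regions higher and 0.636% lower (81 and 15 regions). With library totals in place of the scaling these were 51 and 43, and the log2 change of the median region moved from -0.54 to -0.91. For Upf1 against IgG the median moved from -0.03 to -0.90. At Igf2bp1, 0 of 9 regions were called by limma-voom or by the trended test, and 1 of 9 had an unadjusted p below 0.05. Of all 2357 regions, 213 were higher and 192 lower at that unadjusted level in limma-voom, so 1 of 9 was not above the background. The log2 change was -1.36 ± 1.17 in the most covered region (limma-voom adjusted p = 0.542), -0.64 ± 1.21 at 95821519 to 95822880 and -1.57 ± 1.08 at 95822965 to 95823376 (SE). Over the 9 regions the median was -0.64, with 4 above 0 and 5 below, or 1 above and 8 below with library totals.

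The one region with a large positive value lay upstream of the tract, at 95831999 to 95832074. Its log2 change in Upf1 was 2.41 ± 1.07 (SE, limma-voom adjusted p = 0.215), from 1, 0 and 2 alignments in untreated Upf1 and 2 and 3 with cycloheximide. It lies between junction spans that end at 95831990 and 95831997 and others that start at 95832090, 95832091 and 95832094. In IgG, cycloheximide changed 0 of the 9 Igf2bp1 regions by limma-voom, against 0.0424% of all regions. The difference of the changes between antibodies called 0% of all regions, while at an unadjusted p below 0.05 it was positive in 43 and negative in 57. With library totals these were 15 and 78, without IgG cycloheximide A2 41 and 2, and without IgG untreated A1 62 and 21. At the most covered region that difference was -1.08 ± 1.72 (SE, limma-voom adjusted p = 0.952).

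**Figure D5:**
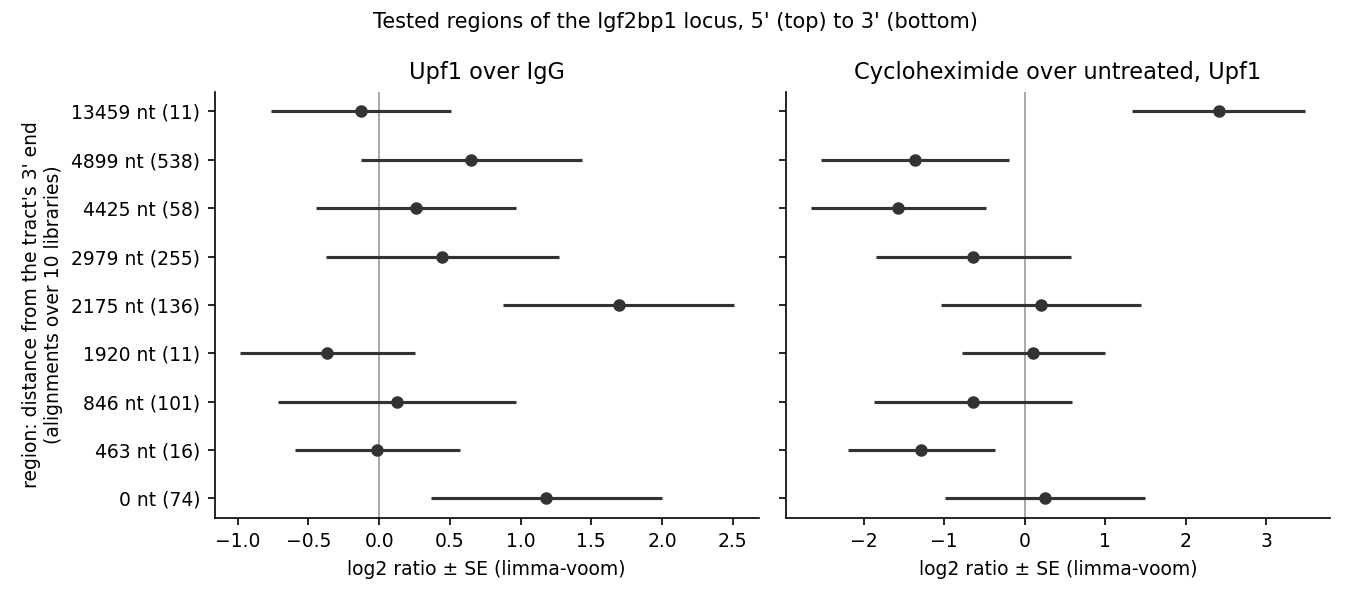
Log2 ratios with their SE from limma-voom for the 9 tested Igf2bp1 regions, 5′ at the top and 3′ at the bottom, each labelled with its distance from the tract's 3′ end and its alignments. The SE bars of 7 of 9 regions cross 0 for Upf1 against IgG and those of 5 of 9 for cycloheximide, and no region passed the adjusted threshold.

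Among all regions the most covered Igf2bp1 region, with 538 alignments, ranked 4th, and among nuclear ones it ranked 2nd, after a region of 2155 alignments on chromosome 19. The 5 regions whose rates were most like that of Igf2bp1 were taken from 45 nuclear regions outside it with at least 100 alignments. Likeness was the Pearson correlation of log2(rate + 1) over the 10 libraries, which share depth, read length and molecules, so it is a description. It was 0.95 for 27390303 to 27391525 on the plus strand of chromosome 2 and 0.941 for 144947671 to 144948633 on the minus strand of chromosome 6. It was 0.900 for 133559254 to 133561081 on the minus strand of chromosome 4, 0.878 for a region on the minus strand of chromosome 18 and 0.863 for 21718652 to 21719612 on the plus strand of chromosome 10. The median over the 45 regions was 0.654. No gene was assigned to these regions.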

How the data were processed

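The deposited files list CLIP-seq alignments, 1 per line, on mm9 and chrRibo, and the tools in the submitters' processing notes, in no stated role, are Bowtie 0.12.6, TopHat 1.4.0 and Cufflinks 1.3.0. In the deposited files the score column is 255 in every line and was not used. Per the labels' protocols, 2 random adapter nucleotides served to filter PCR copies, but the files of the antibodies hold unequal numbers of copies. Each distinct alignment was therefore tallied once per library. Igf2bp1, its most covered part and the tests were chosen with earlier results of these data known. All tested regions of the locus, the 5 fullest 100 nt windows and the 5 most similar regions were named. Rates and shares were compared by exact two-sided permutation tests within strata, with Benjamini-Hochberg adjustment over 5 tests (Python 3.11.15). Regions were fitted with limma-voom (limma 3.58.1, R 4.3.3), with treatment as covariate for antibody and a model of the 4 groups for cycloheximide. Libraries were scaled with trimmed means of M values (trims 30% and 5%), and adjustment was over all 2357 regions. The fit was run on simulated counts of independent libraries with a common spread. The libraries here share molecules, so that run checked the code and not the calls on these data. The tallies were made here from alignments, and no negative binomial tool was used on them. Alternatives covered what is tallied, the denominator, filters, scaling, tool, merging distance, a replicate block and each library left out. The planned gene lists were not evaluated without an mm9 annotation. The 10 mRNA-seq and 3 ribosome footprinting samples were not analysed here.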

Additional observations from a re-analysis of the deposited data

How the results depend on the processing

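Over 18 alternatives each, the locus rate difference kept its sign, from -103.8 to -8.38 for Upf1 against IgG and from -238 to -88.2 for cycloheximide. Over 16 alternatives each, the cycloheximide difference in the share of the most covered part ran from -14.3 to -1.77 points and that in the spliced share from -5.67 to -0.129 points, the last without IgG untreated A1. No alternative moved any of these across the threshold, but the design left little room for that. The smallest exact permutation p attainable ran from 0.01 to 0.125 over the settings, before adjustment over 5 tests. A result at those limits could not pass alone, so the lack of a crossing does not show stability. No alternative called a region of Igf2bp1 by limma (20 alternatives for each contrast). The difference between Upf1 and IgG in the share of the most covered part, 0.610 points, took the other sign without shared molecules (-21.8), among libraries with 38 nt reads (-0.847), with the part widened by 500 nt (-1.37) and with single libraries left out (range -3.48 to 4.02). The log2 ratio of Upf1 to IgG in the most covered region, 0.65, was -0.19 with library totals and ranged from -0.0707 to 1.19 with single libraries left out, the lowest without IgG untreated A1 and the highest without IgG untreated I. The cause was not tested.

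With the library name as a replicate block, the rate differences were -57.2 for Upf1 against IgG (exact permutation p = 0.562) and -134 for cycloheximide (exact permutation p = 0.25). The shares of the most covered part differed by 0.610 and -9.63 points and the spliced share by -4.12 points. For cycloheximide the untreated libraries named I have no counterpart and were left out of these block values. The exact permutation p with the block cannot go below 0.0625 for antibody and 0.125 for cycloheximide. These tests could therefore not have made a call. In limma-voom the block called 0 regions of Igf2bp1. Deviations of same-named libraries from their group means correlated between -0.06 and 0.43 over 2357 regions. The highest values were 0.43 and 0.40, between Upf1 and IgG in untreated A2 and I. In IgG, cycloheximide against untreated gave 0.34 in A2 and 0.23 in A1. The other values ran from -0.06 to 0.02. With cycloheximide the value between antibodies is the same for A1 and A2, since deviations in groups of 2 libraries mirror each other. Some same-named libraries thus deviated together. Depth, read length and shared molecules also vary between libraries, and their part in this was not tested. The main tests did not pair libraries by name and leave any such dependence out.

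Calls for cycloheximide in Upf1 over all regions, 81 higher and 15 lower, were 51 and 43 with library totals, 120 and 6 with trended limma, 13 and 0 with at least 30 alignments, 6 and 1 with distinct molecules, 11 and 3 without shared molecules, 66 and 14 when merged at 20 nt, 105 and 16 with the block, and 0 with every line, with no filter or among 38 nt libraries. With single libraries left out they ranged from 0 to 144 higher and 0 to 73 lower, and were 0 without either Upf1 cycloheximide library. Depth limits the values of 4 IgG libraries, with 18 to 69 Igf2bp1 alignments, and of both Upf1 cycloheximide libraries, with 59 and 66.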
